A study of Homo sapiens with 4 samples.

Results

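The 9 genes described here encode enzymes that make deoxynucleotides and pyrimidines: RRM1, RRM2, TYMS, DTYMK, TK1, DUT, SHMT1, CAD and UMPS. They were found by symbol in the deposited expression tables, and all 9 were present among the 58735 genes listed. RNA-seq was performed on HaCaT cells (HaCAT in the labels), an established line of human keratinocytes. Cells of the siControl group received a normal control siRNA and carry the genotype label WT, cells of the siALKBH5 group received siRNA against ALKBH5, which encodes an m6A RNA demethylase, and both groups were given 200 pmol siRNA with a lipofectamine reagent. There were 2 libraries per group, all from 1 cell line, and the labels state neither which siRNA was used nor whether the libraries came from separate cultures, so the p-values below measure only the spread between these libraries, which may be technical.

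Library totals ran from 16017502 to 18837807 counts on genes. ALKBH5 itself was measured at 93.7 and 87.5 CPM (counts scaled to a common library size) in siControl and at 51.1 and 49.5 CPM in siALKBH5, or 55.5% of control (log2 fold change -0.85 ± 0.05 SE, adjusted p = 6.4e-15 in edgeR's quasi-likelihood test with Benjamini-Hochberg adjustment). The 14 keratinocyte markers examined were all detected and summed to 35762 to 36022 CPM in siControl and 37455 to 37596 CPM in siALKBH5. Marker lists of other cell types were low beside these sums. The fibroblast list summed to 21.9 and 22.8 CPM in siControl against 18.7 and 19.1 CPM in siALKBH5, with COL1A2, PDGFRA and PDGFRB at 0, and the melanocyte and leukocyte lists stayed at or below 4.22 CPM in every library, with TYR and TYRP1 of the melanocyte list at 0. The endothelial list summed to 32.5 CPM in both siControl libraries and to 34.9 and 35.4 CPM in siALKBH5, with KDR at 0. Single markers moved within these sums. Of the 14 keratinocyte markers, 6 rose and 5 fell, from KRT5 (log2 fold change 0.68) and KRT6A (0.63) to KRT15 (-0.48). Among all genes tested, 19.3% rose and 17.3% fell. The other keratinocyte markers that fell moved little, TP63 the most of them (-0.09). The fibroblast genes DCN (-1.25) and LUM (-1.08) fell from low levels, and the leukocyte gene CD14 (0.64) rose from a low level. The endothelial gene VWF rose (0.51) and CDH5 fell (-0.69). Each of these genes had an adjusted p under 0.05 in edgeR. The part of these differences in the results below was not tested.

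Cells build DNA from deoxynucleoside triphosphates, whose de novo supply depends on ribonucleotide reductase, which reduces ribonucleotides to deoxynucleotides. Thymidylate is then made either from deoxyuridylate by thymidylate synthase or by salvage of thymidine, while the pyrimidine ring itself is assembled de novo by CAD, DHODH and UMPS. Many genes of deoxynucleotide supply are known for transcription that rises as cells enter S phase, so their mRNA is often read together with that of replication genes.

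Of the 9 genes, 8 were higher and 1 was lower in siALKBH5 at an adjusted p under 0.05 in edgeR's quasi-likelihood test, against 19.3% of all genes tested that were higher and 17.3% that were lower. The genes that rose were RRM1, RRM2, TYMS, DTYMK, TK1, DUT, SHMT1 and CAD, and the gene that fell was UMPS. TK1, TYMS and RRM2 had at least doubled in level (a log2 fold change of at least 1), which 1.62% of all genes tested did with an adjusted p under 0.05. The count of 3 was 1 without siControl replicate 1, where TYMS was at 0.99 and RRM2 at 0.91, and 2 without siALKBH5 replicate 2, where RRM2 was at 0.99. In all 9 genes the libraries of the siControl and siALKBH5 groups did not overlap in CPM, which was also true of 66.3% of the genes tested. The median log2 fold change of the 9 genes was 0.52, beside -0.01 for all 15075 genes tested. Their summed level was 407 and 416 CPM in siControl and 596 and 594 CPM in siALKBH5. In RNA from bulk cells, more cells that express a gene and more RNA per cell cannot be told apart.

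**Figure D1:**
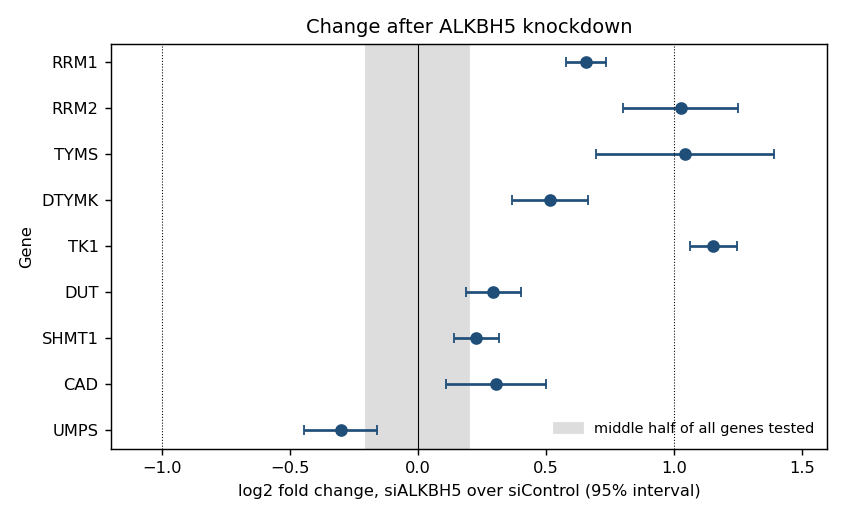
The log2 fold change of each gene, siALKBH5 over siControl, is plotted with its 95% interval, and the grey band runs from the lower to the upper quartile of all 15075 genes tested, -0.20 to 0.20. The intervals of RRM1, RRM2, TYMS, DTYMK and TK1 lie above the band, and UMPS is the only gene below 0.

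Promoter sequences are shown because most of these genes moved in the same direction and the letters near their starts can be read beside the values. The 9 genes matched 14 RefSeq promoters (GRCh38.p14, 250 bases before to 50 after each start), which were searched on both strands for short motifs. The letters CCAAT were found in 7 of the 14 promoters, belonging to 6 genes, and in 34.6% of all 35116 promoters. GGGCGG, the core bound by SP1, was in 10 of 14 (71.4%) against 45.0%. TTTGAA, a form of the cell cycle homology region, was in 3 of 14 (21.4%) against 15.2%. The promoters with TTTGAA were of DUT and RRM1, which rose, and of UMPS, which fell. The long E2F form TTTCGCGC was in none of the 14 and in 0.515% of all promoters, and TTTGGCGC was in 1, that of DUT (7.14% against 0.652%). A search for shorter E2F cores was added after the promoters had been seen. These cores were TTCCCGC as in the classical site, its variant TTCGCGC, the related form TTGCCGC and, within the longer form above, TTGGCGC. It found 5 of 14 promoters (35.7%), those of DUT, RRM1, RRM2, TK1 and TYMS, against 12.97% of all promoters. A match to these letters is a description and says nothing of binding.

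The genes with the highest fold changes, RRM2, TK1 and TYMS, are shown with 30 bases around matches close to the start, and UMPS, the gene that fell, with its TTTGAA next to the start. Each sequence runs 5′ to 3′ on the strand of the gene, and the capitals mark the motif or its reverse complement (CCAAT or ATTGG, an E2F core as GCGGGAA, or TTTGAA).
RRM2 chr2:10122604-10122633 plus strand, CCAAT: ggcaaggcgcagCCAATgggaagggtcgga
RRM2 chr2:10122634-10122663 plus strand, CCAAT: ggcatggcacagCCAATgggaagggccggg
RRM2 chr2:10122661-10122690 plus strand, CCAAT: ggggcaccaaagCCAATgggaagggccggg
TK1 chr17:78187112-78187141 minus strand, CCAAT: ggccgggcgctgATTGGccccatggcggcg
TK1 chr17:78187081-78187110 minus strand, CCAAT: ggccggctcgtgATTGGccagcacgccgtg
TK1 chr17:78187053-78187082 minus strand, E2F core: tggtttaaagcggtcggcGCGGGAAccagg
TYMS chr18:657603-657632 plus strand, E2F core: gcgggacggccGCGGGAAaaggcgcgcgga
UMPS chr3:124730422-124730451 plus strand, TTTGAA: cggaggcccggggcgcctgggaaTTTGAAg
The RRM2 promoter shown held CCAAT 3 times within the stretch from 123 to 66 bases before its start, and no E2F core. Another RRM2 promoter held CCAAT 249 bases before its start and an E2F core 192 bases before it. The TK1 promoter shown held ATTGG 77 and 46 bases before its start, and GCGGGAA 12 bases before it. Another TK1 promoter held neither CCAAT nor an E2F core. No CCAAT was found in the promoters of TYMS, DUT and UMPS, and no E2F core in those of CAD, DTYMK, SHMT1 and UMPS. This says only that these letters were not in them. Of the genes without an E2F core, CAD, DTYMK and SHMT1 rose and UMPS fell.

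Ribonucleotide reductase joins a large catalytic subunit, RRM1, with a small subunit that carries the radical, which is RRM2 in dividing cells or RRM2B in cells at rest and after DNA damage. RRM1 (chr11:4094707-4138876, plus strand) was measured at 102.1 and 106.8 CPM in siControl and at 165.1 and 164.1 CPM in siALKBH5. Both siALKBH5 libraries stood far above both siControl libraries, and the level was 157.6% of the control (log2 fold change 0.66 ± 0.04 SE, adjusted p = 1.6e-15, edgeR). RRM2 (chr2:10120698-10131419, plus strand) was at 9.73 and 11.6 CPM in siControl and at 21.2 and 22.4 CPM in siALKBH5. Its siControl libraries were spread the most of the 9 genes relative to their mean, and the lower siALKBH5 library was well above the higher siControl library, and the level was 204.5% of the control (log2 fold change 1.03 ± 0.11 SE, adjusted p = 3.6e-09, edgeR). The overlapping gene AC007240.1, also on the plus strand, shares 20.2% of the exon bases of RRM2. It held 3 to 8 counts per library, beside 157 to 397 for RRM2. Reads in the shared stretch cannot be assigned with certainty, which also limits the RRM2 levels per kilobase and ratios below.

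RRM2B was at 12.7 and 11.2 CPM in siControl and at 12.4 and 11.8 CPM in siALKBH5. The siALKBH5 libraries lay between the siControl libraries, and its log2 fold change was 0.02 with a 95% interval from -0.23 to 0.27 (adjusted p = 0.91, edgeR). Per kilobase of exon, RRM2 was far less abundant than RRM1 in every library. The ratio of RRM2 to RRM1 was 0.0748 and 0.0852 in siControl and 0.101 and 0.107 in siALKBH5, and the mean ratio was 1.30 times as high in siALKBH5. The ratio of RRM2B to RRM1 went the other way, from 0.0937 and 0.0787 in siControl to 0.0565 and 0.0540 in siALKBH5. RRM2 and RRM2B were close to each other in siControl, with a ratio of RRM2 to RRM2B of 0.798 and 1.08, and RRM2 was the more abundant small subunit in siALKBH5, with 1.78 and 1.98. None of these 3 ratios overlapped between the groups, and with 2 libraries against 2 the smallest p that a two-sided exact permutation test allows is 0.333.

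**Figure D2:**
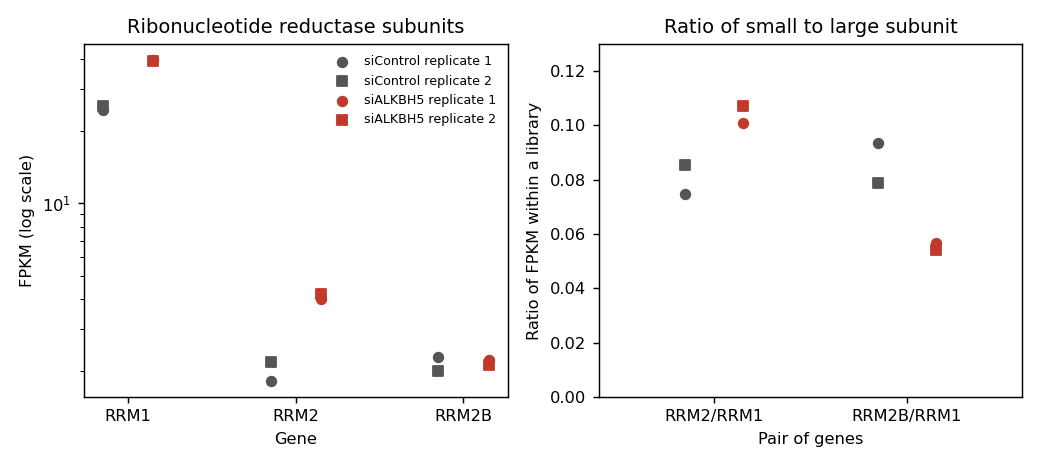
Levels of the ribonucleotide reductase subunits in FPKM (CPM per kilobase of exon, log scale, left) and their ratios within each library (right), with 1 point per library. RRM1 and RRM2 are higher in both siALKBH5 libraries, RRM2B is not separated, and the ratio of RRM2 to RRM1 moves from between 0.0748 and 0.0852 to between 0.101 and 0.107.

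Thymidylate synthase, TYMS, methylates deoxyuridylate with a folate donor and is the target of fluorouracil. TYMS (chr18:657604-673578, plus strand) had the fewest counts of the 9 genes, 59 and 72 without knockdown and 147 and 131 after it, or 3.66 and 3.996 CPM against 7.86 and 7.95 CPM. Both siALKBH5 libraries were about double the siControl libraries, at 206.6% of the control (log2 fold change 1.04 ± 0.17 SE, 95% interval 0.69 to 1.39, adjusted p = 8.5e-06, edgeR). This interval was the widest of the 9 genes. ENOSF1, on the opposite strand, shares 39.1% of the exon bases of TYMS, and the strand setting of the counting is not given in the sources used here, so reads in that stretch cannot be assigned with certainty. The counts of ENOSF1 were 150 and 164 without knockdown and 161 and 170 after it, a log2 fold change of 0.04 (adjusted p = 0.87, edgeR).

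DUT, the dUTPase, makes the deoxyuridylate that TYMS uses and keeps uracil out of DNA. DUT (chr15:48331011-48343373, plus strand) was at 55.8 and 58.8 CPM in siControl and at 70.0 and 70.7 CPM in siALKBH5, an increase to 122.8% of the control (log2 fold change 0.29 ± 0.05 SE, adjusted p = 3.8e-05, edgeR). SHMT1, the cytosolic serine hydroxymethyltransferase, loads the folate that TYMS spends. SHMT1 (chr17:18327860-18363563, minus strand) was at 86.9 and 91.8 CPM in siControl and at 104.4 and 105.0 CPM in siALKBH5, and its rise to 117.2% of the control was the smallest of the 8 (log2 fold change 0.23 ± 0.04 SE, adjusted p = 9.2e-05, edgeR). The 95% intervals of the log2 fold change, 0.19 to 0.40 for DUT and 0.14 to 0.32 for SHMT1, lie below that of TYMS, and the difference between genes was not tested.

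DTYMK, thymidylate kinase, phosphorylates the thymidylate made by either route. DTYMK (chr2:241675742-241686991, minus strand) was at 31.5 and 28.3 CPM in siControl and at 42.3 and 43.0 CPM in siALKBH5. The siALKBH5 libraries were closely matched and above both siControl libraries, at 142.7% of the control (log2 fold change 0.52 ± 0.07 SE, adjusted p = 6.4e-07, edgeR). TK1, the cytosolic thymidine kinase of the salvage route, is a common marker of dividing cells. TK1 (chr17:78174075-78187233, minus strand) was at 57.3 and 58.1 CPM in siControl and at 130.1 and 126.8 CPM in siALKBH5. It had the highest fold change of the 9 genes, to 222.6% of the control, and one of the narrowest intervals (log2 fold change 1.15 ± 0.05 SE, 95% interval 1.06 to 1.25, adjusted p = 2.6e-20, edgeR), and its log2 fold change was above that of 98.6% of all genes tested. TK2, the mitochondrial thymidine kinase, was at 14.9 and 12.5 CPM in siControl and at 14.9 and 14.6 CPM in siALKBH5 (log2 fold change 0.11, 95% interval -0.13 to 0.35, adjusted p = 0.50, edgeR). Per kilobase, TK1 exceeded TK2 by 14.8 and 17.8 times in siControl and by 33.6 and 33.5 times in siALKBH5.

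**Figure D3:**
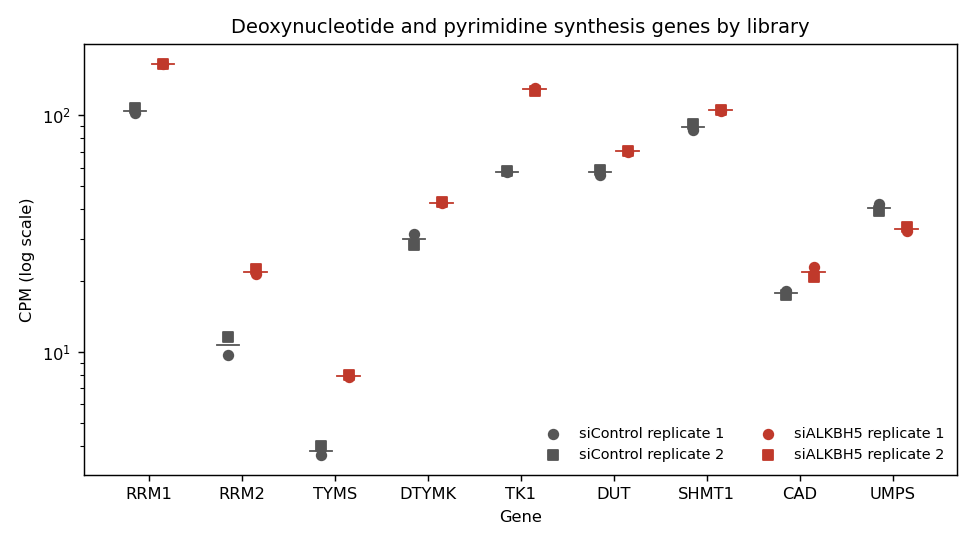
Levels of the 9 genes in CPM on a log scale, with 1 point per library and a bar at the mean of each group. For 8 genes both siALKBH5 libraries lie above both siControl libraries, and for UMPS they lie below, at 32.3 and 33.6 CPM against 42.1 and 39.2 CPM.

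CAD carries the opening 3 activities of de novo pyrimidine synthesis on 1 polypeptide, and UMPS carries the closing activities that give UMP. CAD (chr2:27217390-27243943, plus strand) was at 18.1 and 17.3 CPM in siControl and at 22.9 and 20.7 CPM in siALKBH5, which is 123.1% of the control. The siALKBH5 libraries were both higher but also the more spread, and the log2 fold change was 0.30 ± 0.10 SE (95% interval 0.11 to 0.50, adjusted p = 0.0127, edgeR). The call for CAD was lost with DESeq2 (0.31, adjusted p = 0.081) and, in edgeR, without siControl replicate 2 (0.27, adjusted p = 0.089) or without siALKBH5 replicate 1 (0.23, adjusted p = 0.15). UMPS (chr3:124730366-124749273, plus strand) was at 42.1 and 39.2 CPM in siControl and at 32.3 and 33.6 CPM in siALKBH5. It fell to 81.0% of the control (log2 fold change -0.30 ± 0.07 SE, 95% interval -0.45 to -0.16, adjusted p = 8.7e-04, edgeR). The ratio of UMPS to CAD per kilobase was 2.59 and 2.52 in siControl and 1.57 and 1.80 in siALKBH5. Since UMPS fell and CAD rose without overlap of the groups, their ratio could not overlap either. DHODH, the mitochondrial enzyme that acts between them, was at 6.63 and 5.49 CPM in siControl and at 6.31 and 5.46 CPM in siALKBH5, with a log2 fold change of -0.03 (95% interval -0.38 to 0.31, adjusted p = 0.90, edgeR).

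Compared per kilobase of exon, the 9 genes covered a 20.02-fold range in siControl. The order of mean FPKM was TK1 at 31.0, RRM1 at 25.01, DUT at 15.6, SHMT1 at 12.3, DTYMK at 12.2, UMPS at 5.37, CAD at 2.10, RRM2 at 2.003 and TYMS at 1.55. SHMT1 and DTYMK overlapped between libraries, as did CAD and RRM2, and the other neighbours did not. In siALKBH5 the order was TK1 at 69.0, RRM1 at 39.4, DUT at 19.1, DTYMK at 17.4, SHMT1 at 14.4, UMPS at 4.35, RRM2 at 4.10, TYMS at 3.20 and CAD at 2.59, and no neighbours overlapped. DTYMK thus stood above SHMT1, and RRM2 and TYMS stood above CAD, after knockdown. The lengths are those of all annotated exons joined, which for RRM2 and UMPS come from 13 and 11 transcripts, so a gene whose shorter transcript prevails is understated on this scale. The level of TYMS, the lowest in siControl, is further limited by the stretch shared with ENOSF1. That of RRM2 is limited by the stretch shared with AC007240.1. Reads in either stretch cannot be assigned with certainty. Rows for pseudogenes of DUT, RRM2, SHMT1 and TYMS held 0 to 4 counts per library.

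The wider nucleotide pathways were described with 4 further lists, of which 50 of 53 genes were tested, and 27 were higher, 1 was lower and 22 did not pass. Of all genes tested, 19.3% were higher and 17.3% were lower, with a median log2 fold change of -0.01. Of the 9 other pyrimidine enzymes, 3 rose and 6 did not pass, with a median log2 fold change of 0.12. The genes that rose were CTPS1, a CTP synthase (0.99, adjusted p = 1.7e-05), NME1, a nucleoside diphosphate kinase (0.74, adjusted p = 5.6e-05), and UPP1, a uridine phosphorylase (0.38, adjusted p = 0.0061), all in edgeR. Of 15 genes of deoxynucleotide supply and clearance that were tested, 7 rose, 1 fell and 7 did not pass, with a median of 0.11. NUDT1, which clears oxidised nucleotides, rose by 0.61 (adjusted p = 5.2e-06, edgeR). SAMHD1, which degrades deoxynucleoside triphosphates, rose as well, from 29.2 and 29.7 CPM to 34.4 and 37.0 CPM (0.28, adjusted p = 0.0036, edgeR), and GUK1, guanylate kinase, rose by 0.11 (adjusted p = 0.019, edgeR). TYMP, which breaks down thymidine, was the gene that fell, from 14.6 and 18.5 CPM to 12.3 and 14.2 CPM (-0.33, adjusted p = 0.030, edgeR). The call for TYMP was lost with DESeq2, without siControl replicate 2 and without siALKBH5 replicate 1. DCK, the deoxycytidine kinase, had a log2 fold change of 0.17 with a 95% interval from -0.06 to 0.41 (adjusted p = 0.26, edgeR).

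Of the 10 other folate genes tested, 7 rose and 3 did not pass, with a median log2 fold change of 0.50. Among all genes tested, 19.3% rose. MTHFD1L, a mitochondrial formate-producing enzyme, rose from 4.09 and 4.05 CPM to 10.5 and 9.10 CPM (1.27 ± 0.16 SE, adjusted p = 1.1e-07, edgeR). FOLR1, a folate receptor, rose by 1.39 (adjusted p = 0.0021, edgeR) from 15 and 15 counts to 48 and 34. SHMT2, the mitochondrial counterpart of SHMT1, rose by 0.18 (adjusted p = 5.9e-04, edgeR), beside 0.23 for SHMT1, and GGH, which trims folate polyglutamates, rose by 0.47 (adjusted p = 4.6e-06, edgeR). Of the 16 purine genes, 10 rose and 6 did not pass, with a median of 0.22. HPRT1, the salvage enzyme for hypoxanthine and guanine, led with 0.70 (adjusted p = 4.1e-09, edgeR), followed by ATIC with 0.41 (adjusted p = 1.0e-05, edgeR). The purine genes that rose least were GART (0.19, adjusted p = 0.037) and GMPS (0.16, adjusted p = 0.0067), also in edgeR. PPAT, the committed step of purine synthesis, had -0.12 with a 95% interval from -0.44 to 0.20 (adjusted p = 0.60, edgeR).

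**Figure D4:**
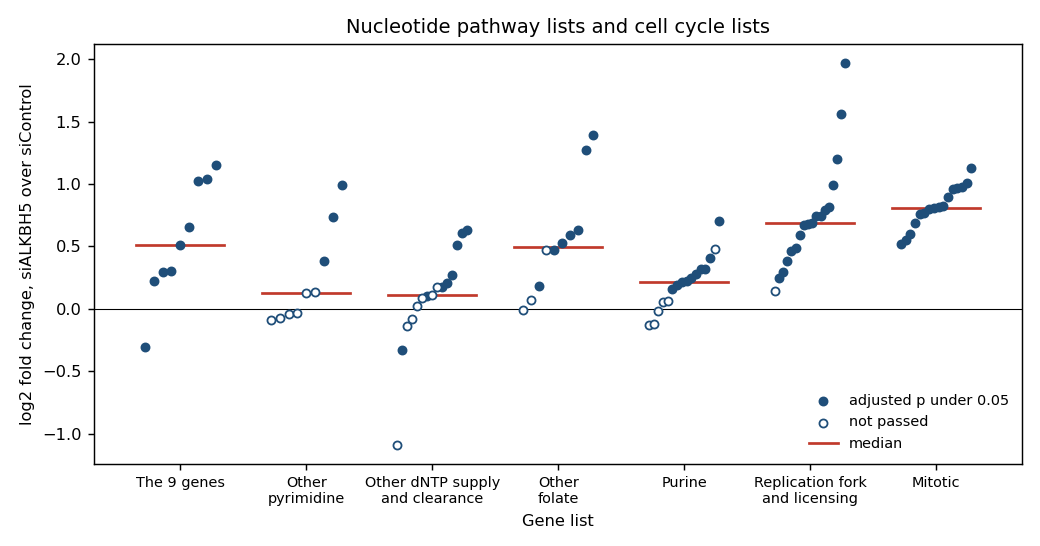
The log2 fold change of every tested gene is plotted by list, filled where the adjusted p was under 0.05 and open where it was not, with a line at the list's median. The 9 genes have a median of 0.52, beside 0.12, 0.11, 0.50 and 0.22 for the 4 nucleotide lists, 0.68 for replication fork and licensing genes and 0.81 for mitotic genes.

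Since the mRNA of many of these enzymes follows the cell cycle, lists of replication and mitotic genes were set beside them. Beside 19.3% of all genes tested that rose, 17 of 18 replication fork and licensing genes rose and 1 did not pass. Their median log2 fold change was 0.68. The lowest value, 0.14, was that of the gene that did not pass. Lowest of the genes that rose were PCNA, the sliding clamp (0.25, adjusted p = 4.9e-06, edgeR), and MCM4, a helicase subunit (0.29, adjusted p = 8.3e-07, edgeR). The highest were ORC1 (1.56, adjusted p = 2.4e-12, edgeR) and CDC45 (1.97, adjusted p = 8.5e-13, edgeR), which act at origins. All 16 mitotic genes rose, with a median of 0.81, among them CDK1 (0.52, adjusted p = 2.6e-09, edgeR), TTK (0.55, adjusted p = 6.8e-08, edgeR), PLK1 (1.005, adjusted p = 1.6e-19, edgeR) and BIRC5 (1.13, adjusted p = 9.6e-17, edgeR). Of the 9 enzymes, 8 rose as these lists did and UMPS fell, and the part of the cell cycle genes in the values of the 9 was not tested. The paper reported no change in HaCaT proliferation or cell cycle after ALKBH5 knockdown in its cell assays. These mRNA levels do not measure cell division. Of 9249 other genes with a mean of at least 10 CPM, the 5 whose profile over the 4 libraries lay nearest to the mean profile of the 9 were ABCC3, CENPA, LSM4, EZH2 and STMN1, at Euclidean distances of 0.00587 to 0.0280 on centred log2 CPM. With 4 libraries in 2 groups, such nearness reflects mainly a like difference between the groups.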

How the data were processed

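Raw counts per gene of 2 siControl and 2 siALKBH5 libraries (poly-A RNA) were used as the authors deposited them, on GRCh38, and 58724 of 58735 identifiers had the coordinates of GENCODE 29. The submitters' processing notes name CASAVA, HISAT2 2.0.5, featureCounts 1.5.0-p3 and DESeq2 1.20.0, with no role given, and hg38. The deposited FPKM, and the authors' log2 fold changes and p-values, which compare 1 library with 1, were not used. The deposited gene length served for FPKM recomputed here from counts. Of the per-sample columns, only the raw counts of each library were mapped to samples.

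The comparison used the quasi-likelihood test of edgeR 4.0.16 (R 4.3.3) on the 15075 genes kept by filterByExpr, with TMM and no covariates, with Benjamini-Hochberg adjustment over all genes tested. All 9 genes passed the filter. CPM use TMM-scaled library totals, errors are SE of the log2 fold change, and intervals are 95%. Libraries of a group differed by more than sampling noise (chi-square per degree of freedom 1.73 in siControl and 1.85 in siALKBH5), so none was taken as a repeat deposit of another, which does not show that they came from separate cultures. With totals of 16017502 to 18837807 counts, the 9 genes held 59 to 3089 counts per library. Data were simulated with 1 dispersion for all genes, taken from these libraries, and with 100 genes changed by each size. In them edgeR recovered 75 of 100 genes changed by 0.5 and 87 of 98 changed by 1 on the log2 scale. It made 9 false calls among 15037 genes. DESeq2 recovered 52 of 99 and 73 of 98, with 0 false calls. Spread that differs by gene or culture was not simulated, so the false calls do not speak for it.

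The members and lists were chosen with earlier results of these data known. Beyond the members and ALKBH5, the genes named are the 2 highest and 2 lowest called genes of each list, RRM2B, DHODH, DCK, SAMHD1, SHMT2 and PPAT, rows that overlap a member or are named as its pseudogene, and the 5 nearest profiles. Some items that this rule names are not reported here. TK2, the single list genes named in the closing observations, the ratios other than RRM2 to RRM1 and the E2F cores were chosen after values or sequences were seen. The alternatives were an adjusted p under 0.01, DESeq2 1.42.0 or its size factors alone, scaling by totals only, a minimum mean of 10 counts or none, a block for the replicate number, and leaving out 1 library at a time.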

Additional observations from a re-analysis of the deposited data

How the results depend on the processing

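Over the alternatives, 7 to 8 of the 9 genes were higher and 1 was lower, and no gene changed direction. Of 90 values for single genes under the 10 alternatives other than the stricter threshold, 87 kept their call and 3 lost it, all of CAD. At an adjusted p under 0.01 CAD was lost too, which left 7 higher. The median of the 9 lay between 0.44 and 0.59. With single libraries left out, the genes past both thresholds numbered 1 to 3, with 1 without siControl replicate 1, where TYMS (0.99) and RRM2 (0.91) fell under a log2 fold change of 1. Of the pathway lists, 22 to 25 genes were then higher and 0 to 1 lower, the lower gene with all libraries being TYMP, and 0 were lower with DESeq2, which gave 22 higher. DESeq2 called 2052 higher and 1431 lower genes of 13604 in all, against 2913 and 2610 in edgeR. Scaling by library size only gave 2616 higher and 2894 lower. The labels give no replicate numbers that pair the libraries, but the deposit sets each siControl library together with 1 siALKBH5 library. The differences between libraries 1 and 2 of the groups correlated at r = 0.034 over 15075 genes. Noise between libraries lowers such a correlation, so it does not show whether the libraries were paired. With the replicate number as a block, 3091 genes were higher and 2831 lower, and 8 and 1 of the 9. TYMS, with 59 to 147 counts, is the gene whose precision the depth limits most.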

Other observations

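Among the genes of deoxynucleotide clearance, CDA, cytidine deaminase, which was singled out after its values were seen, was at 124.3 and 129.7 CPM in siControl and at 174.1 and 189.7 CPM in siALKBH5 (log2 fold change 0.52 ± 0.04 SE, adjusted p = 1.4e-12, edgeR's quasi-likelihood test). CMPK1, which phosphorylates UMP and CMP after UMPS, was at 109.4 and 107.5 CPM in siControl and at 102.4 and 104.1 CPM in siALKBH5 (log2 fold change -0.07, 95% interval -0.16 to 0.01, adjusted p = 0.19, edgeR). The ratio of TK1 to TYMS per kilobase was 20.8 and 19.3 in siControl and 22.0 and 21.2 in siALKBH5. It carries the limit of the TYMS stretch shared with ENOSF1.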
